A study of Oryzias melastigma with 12 samples.

Results

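The 100 probes described here had higher signal in marine medaka larvae exposed to 2 and 20 nM HBCD than in solvent controls, and nearly the same signal at both concentrations where they were compared on one slide. They were taken from 26429 custom probes, of which 10448 were well above background on all 12 arrays, meaning that the scanner software marked more than 0.5 of the probe's spots so. Of these, 731 probes (7.00%) had their lowest value among the 3 arrays at 2 nM and the 3 at 20 nM above the highest control in the deposited log2 values. In 412 of the 731, the mean at 20 nM also lay within 0.1 of the only 2 nM array on the same slide. The members are the 100 of these 412 with the highest value of the smaller rise, which is the lower of the 2 nM minus control and 20 nM minus control differences. The members were thus chosen on the values of 9 arrays, and their differences among those arrays are a description without a test.

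Total RNA of whole larvae was measured on 1-colour arrays in 4 groups of 3. The larvae had hatched no more than 24 hours before the start and spent 7 days in the solvent dimethyl sulfoxide alone, diluted 1 in 30000, or in the same solvent with 0.2, 2 or 20 nM hexabromocyclododecane (HBCD). Every group had 3 dishes of 100 larvae, and the RNA of 30 larvae was pooled per array. In whole larvae, a probe's signal can change because a tissue makes up a different part of the body or because its cells hold a different amount of the RNA, and these cannot be told apart. All larvae, the controls included, received the solvent.

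HBCD is a brominated flame retardant that was added to polystyrene insulation foam, persists in water and sediment, and accumulates in the fat of fish. Effects on thyroid hormone signalling, on oxidative stress and on the developing heart have been reported in fish exposed to it early in life. A transcript that is higher at one concentration and no higher at the next has a level, or plateau, response, which is read here from probe signal alone. The probes carry only the numbers of a custom design: 0 of the 26429 could be joined to the 28599 genes of the reference table, so no gene, sequence or role is given for any of them.

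The arrays lay on 3 slides of 4 arrays each. Slide 1 held the 3 controls and replicate 3 at 0.2 nM, slide 2 held replicates 1 and 2 at 0.2 nM with replicates 2 and 3 at 2 nM, and slide 3 held replicate 1 at 2 nM with the 3 arrays at 20 nM. No slide held controls together with 2 or 20 nM arrays, so those differences also run between slides. The 75th percentile of the signal was between 293 and 478 intensity units, and 43.7% to 48.5% of the custom probes were well above background on an array. Levels below are log2 intensities minus the 75th percentile of their array.

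On this scale too, all 100 members had every array at 2 and 20 nM above every control, as did 7.08% of the detected probes. The median difference from the mean of the controls was 0.85, 0.78 and 0.81 on the 3 arrays at 2 nM and 0.83, 0.84 and 0.86 on the 3 at 20 nM. The rule itself holds the 20 nM mean near 2 nM replicate 1, so the closeness of these medians is no finding. Single members differed at 2 nM between slide 3 and slide 2 by -0.65 to 0.68. Over the members, the median 2 nM minus control difference was 0.82 (range 0.54 to 1.78), and the median 20 nM minus control difference was also 0.82 (range 0.54 to 2.08). In linear terms the members were 1.45- to 3.44-fold higher at 2 nM and 1.45- to 4.23-fold higher at 20 nM than in the controls, with medians of 1.76 and 1.77. Both comparisons use the same 3 control arrays.

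The highest smaller rise belonged to CUST_10003_PI414333748. Its log2 level was -0.61, -1.94 and -1.0 in the controls, 0.81, 0.79 and -0.07 at 0.2 nM, 0.96, 0.27 and 0.57 at 2 nM, and 0.78, 1.03 and 0.89 at 20 nM. The 6 arrays at 2 and 20 nM lay in one band, and so did both arrays at 0.2 nM from slide 2, while the array at 0.2 nM from slide 1 lay between that band and the highest control. The controls themselves spread widely (SD 0.68), so the mean level of 0.60 ± 0.34 at 2 nM and 0.90 ± 0.13 at 20 nM stood against -1.18 ± 0.68 in the controls (SD, n = 3 each).

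The next probe, CUST_18917_PI414333748, had the same shape. Its log2 level was -1.96, -1.82 and -1.20 in the controls, -0.01, 0.09 and -0.90 at 0.2 nM, 0.28, -0.23 and 0.00 at 2 nM, and 0.03, 0.18 and 0.33 at 20 nM. Again the slide 2 arrays at 0.2 nM were as high as the arrays at 2 nM, and the slide 1 array was not. Both probes were printed in the same part of the array, at row 357 and column 25, and at row 306 and column 40. Not all members had this shape. Number 3 by rise, at row 440 and column 78, had log2 levels of 1.41, -0.06 and 0.28 at 0.2 nM, so replicate 2 was among its controls (-0.42, -0.12 and 0.06).

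At the lower end, the members did not stand clear of the probes left out. In the deposited values the smaller rise was 0.51 for CUST_8933_PI414333748, number 99, and 0.51 for CUST_7598_PI414333748, number 100. The next candidates, CUST_15693_PI414333748 and CUST_16968_PI414333748, both had a smaller rise of 0.50. The condition that 20 nM equal 2 nM also cut through a continuum. The largest such difference among the members was 0.0985 and the smallest outside the limit was 0.1004, and 118 probes with a rise as large as a member's were left out for missing it.

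The 3 arrays at 0.2 nM entered the choice of members through the filter on background alone, not through their levels. Their median difference from the control mean was 0.70 for replicate 1, 0.30 for replicate 2 and 0.28 for replicate 3. The 0.2 nM mean was above the control mean in 99 of 100 members, with a median difference of 0.45 (range -0.15 to 1.69). Over all 10448 probes, 5784 were above, with a median of 0.03. Members were picked for low controls, which tilts every difference from the control arrays upward, so these values are a description.

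Array by array, 95 members lay above all 3 controls on replicate 1 at 0.2 nM, against 42.4% of all detected probes. On replicate 2 it was 64 members, against 44.7% of detected probes, and on replicate 3 it was 70 members, against 30.7%. On all 3 arrays at once it was 49 members, against 17.2%. The band of the higher concentrations is taken here to start at a member's lowest value at 2 and 20 nM, a value that the rule used. On replicate 1, 65 of 100 were at or above their own lowest value at 2 and 20 nM, on replicate 2 it was 29, and on replicate 3 it was 7. All 3 arrays at 0.2 nM were in or above that band for 3 members. The share over all detected probes was not counted for this band, so these counts are a description.

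The spread at 0.2 nM was wider for the members than for all detected probes. The median SD between the 3 arrays was 0.32 for the members, against 0.14 for all detected probes. At 2 nM it was 0.16 for the members and 0.18 for all detected probes, at 20 nM it was 0.12 and 0.15, and in the controls it was 0.16 and 0.083. The levels on the control, 2 nM and 20 nM arrays chose the members, and those at 0.2 nM did not.

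The steps within slides are tilted upward by the choice of members, through low controls on slide 1 and high 2 nM arrays on slide 2, and are given as a description. On slide 1, 0.2 nM minus control had a median of 0.28, and 93 of 100 members were above 0, against 51.5% of all tested probes. On slide 2, 2 nM minus 0.2 nM had a median of 0.32, and 80 of 100 were above 0, against 49.6%. The slide 2 step differed by place on the array, which is described further on. For members in rows 267 to 532 and columns 1 to 42 its median was -0.0031 with 12 of 25 above 0. In columns 43 to 85 of these rows it was 0.31 with 50 of 55 above 0. There the median difference from the control mean was 0.72 on replicate 1 at 0.2 nM and 0.13 on replicate 2. For members in rows 1 to 266 the step was largest, with a median of 0.51 and 12 of 12 above 0. For members printed 5 times it was 0.39 with 6 of 8 above 0. On slide 3, 20 nM minus 2 nM had a median of -0.04, a difference that the choice of members held within 0.1 in the deposited values. No member passed limma's test for the step on slide 1 or slide 2 after Benjamini-Hochberg adjustment over all 11897 tested probes, of which 0.101% were higher on slide 1 and 0.0168% were higher on slide 2. At an unadjusted p below 0.05 in limma, and with the same tilt, 23 members were higher and 0 lower on slide 1 (2.40% of tested probes were higher), and 27 were higher and 1 lower on slide 2 (10.5% of tested probes were higher).

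One comparison among arrays whose levels the rule did not use was replicates 1 and 2 at 0.2 nM (slide 2) minus replicate 3 (slide 1). It is still not free of the choice of members. The members were higher on slide 2 by a median of 0.23, with 82 of 100 above 0. Over all tested probes the median was 0.04, with 56.5% above 0. The members' difference varied by place. In rows 267 to 532 it was 0.40 with 25 of 25 above 0 in columns 1 to 42, and 0.16 with 43 of 55 in columns 43 to 85. In rows 1 to 266 it was 0.12 with 8 of 12 above 0, and for members printed 5 times 0.39 with 6 of 8. The median SE of a member's difference was 0.23, so the typical difference was no larger than its error. Without replicate 1 at 0.2 nM the median was 0.05, and without replicate 2 it was 0.44. In limma 2 members were higher and 0 were lower at an adjusted p below 0.05, against 41 higher (0.345%) and 387 lower of all 11897. At an unadjusted p below 0.05, 20 members were higher and 1 was lower, against 6.43% of tested probes that were higher. All 3 arrays had the same concentration, while the slide, the array and the dish of larvae differed, and these cannot be told apart in this comparison. Its slide 1 side is a single array, whose spread is taken from the other groups in the fit. The spread in this test thus comes mostly from the control, 2 nM and 20 nM arrays, whose levels chose the members. The rule also asked for low controls, which were all on slide 1. It asked for high 2 nM arrays, and replicates 2 and 3 of these were on slide 2. A signal difference between these slides would have favoured both the choice and this comparison, so its values and counts are a description.

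The members that passed were CUST_12828_PI414333748 and CUST_5825_PI414333748, the second named here after its value was seen. CUST_12828_PI414333748 had log2 levels of -0.37 and -0.13 on slide 2 at 0.2 nM and -1.35 on slide 1, next to -1.44, -1.64 and -1.33 in the controls. Its levels were -0.53, -0.90 and -0.73 at 2 nM and -0.77, -0.48 and -0.61 at 20 nM. The slide 2 arrays at 0.2 nM were thus higher than all arrays at 2 and 20 nM, and the slide 1 array was among the controls. The slide difference was 1.10 (SE 0.18, limma adjusted p = 0.0207).

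CUST_5825_PI414333748 had log2 levels of 0.89 and 0.90 on slide 2 at 0.2 nM and 0.30 on slide 1, with -0.23, -0.17 and -0.33 in the controls. At 2 nM it was at 0.87, 1.46 and 1.26, and at 20 nM at 0.80, 0.97 and 0.87. Here all 3 arrays at 0.2 nM were clear of the controls, and both slide 2 arrays were in the band of 20 nM. The slide difference was 0.60 (SE 0.13, limma adjusted p = 0.0433).

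CUST_11242_PI414333748 had the second highest slide difference without passing the test (1.06, SE 0.36, limma adjusted p = 0.159). Its log2 levels were -2.03, -2.27 and -2.16 in the controls, -1.09, -0.92 and -2.07 at 0.2 nM, -1.18, -1.54 and -0.50 at 2 nM, and -0.98, -1.40 and -1.24 at 20 nM. As for CUST_12828_PI414333748, the slide 1 array at 0.2 nM lay among the controls.

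The lowest slide differences ran the other way. CUST_2069_PI414333748 had log2 levels of 2.08 and 1.98 on slide 2 at 0.2 nM and 2.54 on slide 1, a difference of -0.51 (SE 0.17, limma adjusted p = 0.150). It was at 2.02, 1.89 and 1.88 in the controls, 2.97, 2.78 and 2.68 at 2 nM, and 2.78, 3.15 and 2.78 at 20 nM, so that 0.2 nM on slide 2 was close to the controls. CUST_24884_PI414333748 had -2.31, -3.29 and -2.36 at 0.2 nM, and its difference of -0.44 (SE 0.42, limma adjusted p = 0.657) was about its own error. Its controls were at -3.84, -2.93 and -3.30, its 2 nM arrays at -2.16, -2.46 and -2.77, and its 20 nM arrays at -2.22, -2.34 and -2.10. For this probe replicate 2 alone stayed within the controls at 0.2 nM.

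In the limma fit of the 4 groups, 55 members were higher at 2 nM than in controls at an adjusted p below 0.05 (2.41% of all tested probes were), and 61 were higher at 20 nM (2.49%). These comparisons chose the members, and nothing is read from the counts. At 0.2 nM against control, 0 members passed in limma (0% of all tested), and 56 had an unadjusted p below 0.05 (7.90%). Without replicate 3 at 0.2 nM 26 members passed, with 426 of all 11897 probes in either direction. That leaves 0.2 nM on slide 2 and the controls on slide 1, so concentration and slide cannot be told apart there. With array weights 65 passed, with 3997 of all probes. Against 0.2 nM, 5 members were higher at 2 nM (0.101%) and 19 at 20 nM (4.48%), in a direction that the choice of high 2 and 20 nM arrays favours. With single arrays left out these counts ran from 0 to 10 and from 0 to 27, with 0 in both for control replicates 1 and 2 and for replicate 2 at 0.2 nM. At the upper ends, 134 and 3078 of all tested probes passed in either direction. The 5 were numbers 4, 31, 43, 65 and 92 by rise, with differences of 0.61 to 0.90, and numbers 4, 31, 65 and 92 were printed in rows 1 to 266 of the array, where few members lie. With slide as a block, no member passed in limma at 2 nM (0.00841% of tested probes did) or at 20 nM (0%), and 33 and 25 had an unadjusted p below 0.05 (5.12% and 2.89% of tested probes). The median difference with the block was 0.63 (median SE 0.29) at 2 nM and 0.59 at 20 nM. The blocked 2 nM difference is the slide 1 step plus the slide 2 step, both tilted by the choice of members. Its slide 1 step rests on 1 array at 0.2 nM. The blocked 20 nM difference only adds the slide 3 step, which the rule held within 0.1, so it is no separate result. Nothing is read from the blocked counts.

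The members shared a place on the array that the rule did not use. Each array is a grid of 532 rows and 85 columns in which most probes have 1 spot at a place that is the same on all arrays. Of the members, 92 were printed once and 8 were printed 5 times. Of the 92, 80 lay in rows 267 to 532 (87.0%) and 12 in rows 1 to 266, although the detected probes printed once were split into 4267 in the lower rows (50.8%) and 4133 in the upper rows. The border at row 266 and the other limits on place were chosen after the data were seen.

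The same held for raised probes as a class, not for the members alone. Of the detected single-spot probes in the lower rows, 458 (10.73%) had all 2 and 20 nM arrays above all controls, against 185 (4.48%) in the upper rows. In bins of 38 rows, the share was between 7.66% and 12.6% in the 7 bins of the lower rows and between 1.89% and 6.60% in the 7 bins of the upper rows. At the border it stepped, with 12.2% in rows 267 to 304 and 4.38% in rows 229 to 266. Probes with all 2 and 20 nM arrays below all controls were not placed this way, with 211 (4.94%) in the lower and 267 (6.46%) in the upper rows. Among the 100 most lowered probes by the mirrored rule, 30 of the 86 single-spot probes were in the lower rows. For the single-spot probes that were no members, the mean difference of the 2 and 20 nM arrays from the controls had a median of -0.01 in the lower and -0.03 in the upper rows.

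The members were more unevenly placed than the raised probes left out. Of the candidates that met the rule but fell below the 100, 170 of 274 single-spot probes (62.0%) were in the lower rows, against 80 of 92 (87.0%) for the members. Of the raised probes that missed the condition of equal level, it was 208 of 277 (75.1%). In the limma fit of the 4 groups, 205 of 4895 tested single-spot probes in the lower rows were higher at 2 nM, against 55 of 4769 in the upper rows. At 20 nM it was 228 in the lower and 34 in the upper rows.

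The rise at 0.2 nM also differed by place, and differently on each array. Replicates 1 and 2 had the same concentration and slide, yet replicate 1 minus replicate 2 was above 0.5 for 39 of 100 members, against 256 of the 10448 detected probes. In rows 267 to 532 and columns 1 to 42, the 25 members had median differences from the control mean of 0.80 on replicate 1 and 0.75 on replicate 2. In the same rows and columns 43 to 85, the 55 members had 0.72 on replicate 1 and 0.13 on replicate 2. On replicate 3 the medians were 0.32 and 0.26, so on that array the 2 sets of columns were close.

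In counts, 22 of the 25 members in columns 1 to 42 were above all controls on replicate 2, against 27 of the 55 in columns 43 to 85. Of all detected single-spot probes at these places, 43.02% and 42.1% were, so the share of members in columns 43 to 85 was near the background. On replicate 1 it was 23 of 25 and 54 of 55, with 39.3% and 43.5% of the detected probes. The band of 2 and 20 nM was reached on replicate 2 by 15 of the 25 and by 7 of the 55, again without a share over all detected probes. The 12 members in the upper rows had medians of 0.34 on replicate 1, 0.32 on replicate 2 and 0.19 on replicate 3, and replicate 1 exceeded replicate 2 by over 0.5 in 2 of them.

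Probes that were no members also differed by place on these arrays. Replicate 1 exceeded replicate 2 at 0.2 nM by over 0.5 for 151 of 4187 detected single-spot non-members (3.61%) in the lower rows, against 56 of 4121 (1.36%) in the upper rows. It was lower by over 0.5 for 42 (1.00%) in the lower rows and 252 (6.12%) in the upper rows. Over all detected single-spot probes, members included, the share with replicate 1 higher by over 0.5 did not step at row 266. That share was 0.36% to 0.79% in the bins of rows 1 to 190 and 2.22% to 5.56% in those of the lower rows. In rows 191 to 228 it was already 3.30%, and in rows 229 to 266 it was 3.37%.

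Probes printed 5 times allow the same RNA and the same probe to be compared between places. For 1804 detected probes with spots in both parts of the grid, the control mean was first subtracted, separately for the lower and the upper spots. The median of the lower minus the upper value was then between -0.03 and 0.01 on every array. The controls were thus centred on their own mean for each probe, which narrows their tails. The upper tail was not alike. The 95th percentile was 0.12, 0.10 and 0.10 in the controls, 0.37, 0.14 and 0.22 at 0.2 nM, 0.37, 0.41 and 0.32 at 2 nM, and 0.33, 0.31 and 0.36 at 20 nM.

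Counted at a limit of 0.3 on these values, the lower spots were higher for 10, 2 and 4 of the 1804 probes in the controls. At 0.2 nM they were higher for 104, 17 and 52. It was 117, 124 and 95 at 2 nM and 103, 97 and 115 at 20 nM. All arrays at 2 and 20 nM had higher counts than the controls. Part of that gap is built in, because the mean of these same controls was subtracted, so nothing is read from it. On the same values, the upper spots were higher by over 0.3 for 2, 10 and 8 probes in the controls and 13, 43 and 11 at 0.2 nM. For 2 nM these counts were 10, 18 and 10, and for 20 nM 15, 27 and 9. Relative to the controls, replicate 2 at 0.2 nM thus had more probes with higher upper spots than with higher lower spots, unlike the other exposed arrays. From the lower spots alone, 134 of these probes had all 2 and 20 nM arrays above all controls, against 51 from the upper spots alone, and 33 had it from both. For the lowered direction it was 122, 90 and 52.

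The 8 members printed 5 times are those whose rise can be shown spot by spot, and the examples below were picked after their values were seen. These same spots entered the values that chose the members, so their rises are a description and no check. In 7 of the 8, every spot that was used had all 2 and 20 nM arrays above all controls, in upper and lower rows alike, and the rises of the spots of a probe differed by 0.0519 to 0.103. Over all detected probes printed 5 times, the median SD between spots of an array was 0.0800. In number 6 by rise, the mean rise over 2 and 20 nM was 1.21 to 1.28 in its 5 spots. Its log2 levels were 3.00, 2.82 and 2.69 in the controls, 3.76, 3.67 and 3.37 at 0.2 nM, 4.04, 4.36 and 4.15 at 2 nM, and 3.82, 3.98 and 4.09 at 20 nM. No array at any concentration overlapped the controls, and 0.2 nM lay between them and 2 nM on all 3 arrays. In CUST_5825_PI414333748, number 8, the rise was 1.24 to 1.33 in the 5 spots.

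Number 84 was the exception. Its spot in the upper rows rose by 0.32 and overlapped the controls, while its 4 spots in the lower rows rose by 0.64 to 1.01. The overlap was on slide 2, where the upper spot was 0.07 and -0.69 from its control mean at 2 nM. On slide 3 the upper spot was at 0.65 at 2 nM and at 0.51, 0.72 and 0.63 at 20 nM, above its highest control of 0.18. On replicate 1 at 0.2 nM, the difference from the control mean was -0.33 in the upper spot and 0.73 to 1.07 in the 4 lower spots. On replicate 2, it was 0.69 in the upper spot, 1.19 and 0.98 in the lower spots at columns 37 and 20, and -0.13 and 0.06 in those at columns 52 and 55. The spots of this 1 probe thus differed on the same arrays. It has 1 upper spot, so an effect of place and the behaviour of that single spot cannot be told apart. Its spots at columns 52 and 55 were near the controls on replicate 2 and raised on replicate 1. The median of the members in columns 43 to 85 had the same order, and a shared cause was not tested.

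The uneven placing was also present without the scanner's correction for spatial trend. With the pixel medians of each spot minus its local background, 487 of 4267 probes (11.4%) in the lower rows had all 2 and 20 nM arrays above all controls, against 166 of 4133 (4.02%) in the upper rows. All 80 lower-row members and 11 of the 12 upper-row members were among them. The median local background was 32 to 39 intensity units in both parts of the grid. What differed between the parts of the grid was not tested, and a response to HBCD and a difference tied to place cannot be told apart for a member with 1 spot.

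The members also differed from the detected probes in level and printing. Their median log2 level over all arrays was -0.50, against 0.29 for all detected probes, so they were somewhat dimmer. In 5 groups of equal size of the detected probes, ordered from dimmest to brightest, they numbered 23, 31, 16, 18 and 12. Their probe numbers ran from 4 to 26235 of the design. Probes printed 5 times made up 8% of the members and 19.5% of the detected probes.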

How the data were processed

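The deposited scanner output gives the intensity of each spot on a linear scale, with no scaling between the 12 arrays. Agilent Feature Extraction 10.7.3.1, per the file headers, subtracted background and removed spatial trends (version 10.7 in the submitters' processing notes). A second deposited table held log2 values whose array medians were all 4.34. It correlated with the log2 intensity of the same array at r of at least 0.999, and no source used here says how it was made. Members were chosen on that table, with the scanner's marks for spots well above background. All other values are log2 intensity minus the 75th percentile of the array, averaged per probe without outlier spots (507 to 729 per array). No spot was saturated (0 spots).

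In limma 3.58.1 (R 4.3.3), 11897 probes were fitted by group, or by group and slide, with Benjamini-Hochberg adjustment at 0.05. They had a value on every array and were well above background throughout at least 1 group. Where a slide held 1 array of a group, that array was taken to vary as much as the rest. The fits were tested on simulated data. Array number limits the precision, and the spread between arrays covers dish and array together. The alternatives were other scalings, background corrections, filters, weights and blocks, and each array left out.

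Named probes are the 2 highest rises, the 2 highest and 2 lowest slide differences at 0.2 nM, and numbers 99 to 102 at the threshold. Members, lists and tests were chosen with earlier results of these data known. Gene lists were not used (0 tested), since the probes have no names here.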

Additional observations from a re-analysis of the deposited data

How the results depend on the processing

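Of 276 recomputed values, 177 stayed within 1.5 times their count or within their spread and 99 moved. Only the 2 medians could be labelled reversed, and 0 were. Staying includes counts of 0 that remained 0 and medians that a left-out array could not change. For the members' slide difference at 0.2 nM the spread was 0.32, wider than its median of 0.23. A fall to 0.05 without replicate 1 at 0.2 nM thus counted as staying. The counts of members that passed limma depended on the settings. Below, the number after a comparison is its main count, and brackets after a setting hold all tested probes that passed, in either direction. For 0.2 nM on slide 2 against slide 1 (2 members) it was 1 with median scaling, without the filter on dim probes or with upper-row spots only, 0 with normexp and 6 with array weights. At 0.2 nM against control (0) it was 65 with array weights. At 2 nM against control (55) it was 33 with median scaling (165), 0 with normexp (0) and 21 without the filter (78). It was 83 with weights, 0 with slide as a fixed block (1) and 11 as a random block (24). At 20 nM (61) these were 33 (206), 0 (1), 18 (70), 98, 0 (0) and 0 (0). With only both groups in the fit it was 93 (1160). In the main setting 322 of all tested probes passed at 2 nM and 351 at 20 nM. Normexp left at most 1 of all tested probes in any comparison, so its 0 is not particular to the members. With upper-row spots only, 20 members could be tested, and it was 13 at 2 nM and 9 at 20 nM. Of all 6869 probes tested in that setting, 46 and 28 passed in either direction. For 2 nM against 0.2 nM (5) it was 15 with weights, and 1 with quantile normalization (5) or the deposited table (5). It was 0 with median scaling (2), normexp (0), no filter (1), a fixed slide block (4), only both groups (0) or lower-row spots (0). For 20 nM against 0.2 nM (19) it was 1 with median scaling (16), 29 with weights and 5 with only both groups (299). It was 0 with normexp (0), no filter (3), a fixed slide block (3) or a random one (0). In the main setting 17 of all tested probes passed for 2 against 0.2 nM and 1254 for 20 against 0.2 nM. With upper-row spots it was 6 of 20, and 804 of all 6869 probes passed. Within slide 2 (0), median scaling gave 5 (60). Of all tested probes, 428 passed between the slides at 0.2 nM. It was 278 with the percentile of detected probes, 0 with normexp, 1059 with weights, 227 with upper-row and 276 with lower-row spots. Array weights raised the calls over all probes too, in either direction, to 3997 (0.2 nM), 2188 (2 nM) and 2983 (20 nM) against control, and to 265 (2 nM) and 5375 (20 nM) against 0.2 nM. The median of all tested probes at 20 nM minus control was -0.18 with median scaling and -0.04 with the 75th percentile. The members' median between the slides at 0.2 nM was 0.16 to 0.26 over the scalings. Normexp was run on pixel medians of spot and background. The cause of these moves was not tested, though fewer members could be tested with upper-row spots.

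Applied to changed conditions, the rule found 45 of the members again with a level limit of 0.05, 60 with 0.2, 46 with none, and 32 without the filter on dim probes. The last of these and the spots by row were added after the data were seen. Leaving out each array in turn gave 1 to 4 members (slides at 0.2 nM), 0 to 26 (0.2 nM against control), 14 to 72 (2 nM), 15 to 75 (20 nM), 0 to 10 (2 against 0.2 nM), 0 to 27 (20 against 0.2 nM), 0 to 0 (within slide 1) and 0 to 12 (within slide 2). Counts over all tested probes, in either direction, follow in brackets. For 0.2 nM against control it was 26 without replicate 3 at 0.2 nM (426), where the comparison runs wholly between slides. At 2 nM it was 14 without control replicate 2 (36) and 72 without replicate 1 at 0.2 nM (406). At 20 nM it was 15 without replicate 3 at 20 nM (46) and 75 without replicate 1 at 0.2 nM (408). Against 0.2 nM it was 10 at 2 nM without replicate 1 at 20 nM (134), and 27 at 20 nM without replicate 1 at 2 nM (3078). Within slide 2 it was 11 without replicate 1 at 20 nM (203). For all tested probes between slides it was 121 to 646, and for the rule 70 to 96 members. The median slide difference of the members ranged from 0.05 without replicate 1 at 0.2 nM to 0.44 without replicate 2, and the blocked 2 nM median from 0.38 to 0.78. The slide difference and slide 1 step cannot be had without replicate 3 at 0.2 nM. The blocked median was not run without that array or replicate 1 at 2 nM, nor the rule without replicate 1 at 2 nM. Same-numbered arrays of different groups did not deviate together (r of -0.29 to 0.20 in 18 pairs, 3 above 0.1, and 4 of 12 arrays closest to their own number), so the numbers do not pair them. With a replicate block, 0 members and 0 of all probes passed between the slides at 0.2 nM, and 0 members passed for 2 against 0.2 nM. No other count of members moved by over 1.5 times. Counts over all probes moved more, from 1254 to 809 for 20 against 0.2 nM and from 17 to 2 for 2 against 0.2 nM.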
